A study of Homo sapiens with 6 samples.

Results

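The 47 genes described here encode the core regulators of the cell cycle: cyclins, cyclin-dependent kinases (CDKs) and their inhibitors, the phosphatases and kinases that switch CDKs on and off, the RB family, the E2F transcription factors with their DP partners, and the MuvB, MYB and FOXM1 factors of late cell cycle transcription. They were chosen by gene symbol, from general knowledge of the pathway but with earlier results of these data known. All 47 symbols were found among the 26255 gene symbols of the expression tables. The RNA came from HCT116, an established line of human colorectal carcinoma cells. The samples fell into 3 ZsGreen-positive and 3 ZsGreen-negative libraries, and the series title places them in work on colorectal cancer cells transduced with an ornithine decarboxylase degron as models of cancer stem cells. The degron of this enzyme is recognised by the proteasome with no need for a ubiquitin tag, and a fluorescent protein that carries it is retained where turnover is slow. No treatment, time point or genotype beyond the fluorescence class is given in the labels, which call the groups separate types of cell line but do not say whether the negative cells were transduced, how either type was obtained, or whether replicates were separate cultures. The p-values below therefore speak only of the variation among the 6 libraries, part or all of which may be technical, and of HCT116 alone. The comparison asks how the expression of these regulators in ZsGreen-positive cells differs from that in ZsGreen-negative cells.

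A cell enters the cycle when D-type cyclins activate CDK4 and CDK6, which phosphorylate RB and its relatives p107 and p130 and so release E2F factors. E2F1, E2F2 and E2F3 then switch on genes for DNA replication, among them those of cyclin E and cyclin A, which drive CDK2 through S phase. Cyclin B with CDK1 drives mitosis, and its genes are switched on late by MuvB together with B-MYB and FOXM1. In resting cells the same MuvB core joins p130 or p107, E2F4 or E2F5 and a DP protein in the DREAM complex, which holds both sets of genes down. In intestinal epithelium the proliferating cells of the crypt carry this programme, and it is often deregulated in colorectal cancer.

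Before the results, 3 properties of the libraries bear on them. From low values of genes with 1 annotated transcript, the depth came to 12100000 fragments for replicate 1 of the ZsGreen-positive group and 9520000 to 9880000 for the ZsGreen-negative group. In ZsGreen-positive replicates 2 and 3 too few low values were left for an estimate (27 and 43 genes within the range searched, where replicate 1 had 257 and the negative libraries had 371 to 408). Genes listed at 0 numbered 11624 and 11989 in this pair of libraries, 10314 in replicate 1 of the same group and 8985 to 9162 in ZsGreen-negative libraries. The 10 most abundant genes took 45.6% to 47.5% of the summed FPKM in ZsGreen-positive and 56.9% to 57.4% in ZsGreen-negative libraries. FPKM, the unit of the deposited values, is by definition the number of fragments per kilobase of a gene's transcript and per 1000000 fragments mapped in the library. Any further scaling between the libraries is not known here. Of 12 markers of colorectal epithelium, 6 reached 1 FPKM in each library, EPCAM and the keratin genes KRT8 and KRT18 among them, while CDX1 was listed at 0 throughout and VIL1, CDH17, LGALS4, CEACAM5 and GPA33 stayed below 1 FPKM. The summed level of these 12 markers was 3146 to 3578 FPKM in ZsGreen-positive and 4243 to 4310 FPKM in ZsGreen-negative libraries. CDH1, also among the 6, was at 16.5 to 19.0 FPKM in ZsGreen-positive and 49.5 to 50.4 FPKM in ZsGreen-negative libraries. In ZsGreen-positive libraries KRT8 and KRT18 lay lower too, EPCAM and CDX2 lay higher, and KRT19 overlapped between the groups. Markers of other cell types were low: 6 fibroblast markers summed to 0.731 to 1.19 FPKM against 2.35 to 2.50 FPKM, 4 endothelial markers to 0.171 to 0.310 FPKM against 0.107 to 0.142 FPKM, and 6 immune markers to 0.471 to 4.42 FPKM against 2.99 to 3.89 FPKM in ZsGreen-positive and ZsGreen-negative libraries. Both haemoglobin genes of the erythroid list, HBA1 and HBB, were listed at 0 in each library.

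Promoter sequence was examined first, since many of these genes are themselves targets of E2F and MuvB. RefSeq windows of 300 bases (250 before to 50 after an annotated start, build GRCh38.p14) were given for 37 of the 47 genes. They were searched on both strands for the E2F words TTTCCCGC, TTTCGCGC, TTTGCCGC and TTTGGCGC, and for TTTGAA, the word of the cell cycle genes homology region (CHR) that MuvB recognises. The E2F words were present for 7 of the 37 genes (18.9%), against 3.99% of the 27305 genes with a window and 6.84% of the genes with a window that were tested for expression: CDK1, CDC25A, RBL1, E2F1, E2F2, E2F3 and TFDP1. TTTGAA was present for 12 of 37 (32.4%), against 18.2% of genes with a window and 13.2% of those tested. A gene counted when any of its windows held a word, so genes with more windows had more chances. The 37 genes had 1 to 4 windows each, and the 27305 genes had 35116 windows together. The shares are not adjusted for this. CCNA2, CCNB1 and MYBL2 were called higher in ZsGreen-positive libraries but held neither an E2F word nor TTTGAA. RBL2 and LIN54 held TTTGAA and were not called. E2F1 and E2F2 were tested only through their level in ZsGreen-positive libraries. The 7 windows below are shown because they belong to genes called higher in ZsGreen-positive libraries and were thus picked by their result. Of these, 5 hold an E2F word and 3 hold TTTGAA (CDK1 has both), from the activator E2Fs and a pocket protein to CDK1 and 2 late cyclins. Each is written 5′ to 3′ along the gene, with the E2F words and TTTGAA (or their reverse complements) in capitals.

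E2F1, chr20:33686336-33686635, minus strand: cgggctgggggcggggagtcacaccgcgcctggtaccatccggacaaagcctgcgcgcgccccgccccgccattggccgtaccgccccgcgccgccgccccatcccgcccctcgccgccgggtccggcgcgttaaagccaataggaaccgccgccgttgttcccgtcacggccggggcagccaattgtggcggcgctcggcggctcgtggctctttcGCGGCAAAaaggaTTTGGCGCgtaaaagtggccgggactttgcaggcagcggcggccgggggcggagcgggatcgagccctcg
E2F2, chr1:23531184-23531483, minus strand: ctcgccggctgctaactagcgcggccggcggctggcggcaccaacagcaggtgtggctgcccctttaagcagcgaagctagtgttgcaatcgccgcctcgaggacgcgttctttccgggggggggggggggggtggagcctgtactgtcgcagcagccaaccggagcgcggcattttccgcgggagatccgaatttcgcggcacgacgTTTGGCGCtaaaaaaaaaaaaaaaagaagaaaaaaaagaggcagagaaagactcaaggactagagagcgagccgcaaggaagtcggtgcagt
RBL1, chr20:37095948-37096247, minus strand: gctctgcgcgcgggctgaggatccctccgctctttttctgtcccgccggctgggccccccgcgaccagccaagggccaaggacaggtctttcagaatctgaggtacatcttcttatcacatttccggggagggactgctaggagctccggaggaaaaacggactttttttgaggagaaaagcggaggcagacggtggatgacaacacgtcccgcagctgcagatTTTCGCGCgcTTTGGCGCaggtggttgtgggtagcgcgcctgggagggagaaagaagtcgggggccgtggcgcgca
CDC25A, chr3:48188368-48188667, minus strand: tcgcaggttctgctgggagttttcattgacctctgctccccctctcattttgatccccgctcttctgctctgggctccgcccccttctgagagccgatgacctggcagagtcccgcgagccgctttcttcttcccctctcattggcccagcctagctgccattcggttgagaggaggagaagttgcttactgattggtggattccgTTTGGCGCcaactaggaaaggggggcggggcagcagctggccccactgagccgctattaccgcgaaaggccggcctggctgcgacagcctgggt
CDK1, chr10:60778228-60778527, plus strand: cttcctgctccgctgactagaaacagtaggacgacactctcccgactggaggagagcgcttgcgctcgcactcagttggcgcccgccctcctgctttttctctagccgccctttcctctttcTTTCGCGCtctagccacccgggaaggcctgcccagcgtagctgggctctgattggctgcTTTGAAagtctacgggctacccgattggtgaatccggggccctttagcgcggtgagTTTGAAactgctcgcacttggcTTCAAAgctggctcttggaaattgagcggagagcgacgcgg
CCNB2, chr15:59104896-59105195, plus strand: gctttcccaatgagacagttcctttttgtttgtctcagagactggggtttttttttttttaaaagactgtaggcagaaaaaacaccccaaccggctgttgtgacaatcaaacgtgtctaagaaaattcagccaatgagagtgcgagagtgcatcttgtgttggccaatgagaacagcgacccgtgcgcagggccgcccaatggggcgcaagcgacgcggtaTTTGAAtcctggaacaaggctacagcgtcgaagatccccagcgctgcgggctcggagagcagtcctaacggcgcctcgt
CCNF, chr16:2429197-2429496, plus strand: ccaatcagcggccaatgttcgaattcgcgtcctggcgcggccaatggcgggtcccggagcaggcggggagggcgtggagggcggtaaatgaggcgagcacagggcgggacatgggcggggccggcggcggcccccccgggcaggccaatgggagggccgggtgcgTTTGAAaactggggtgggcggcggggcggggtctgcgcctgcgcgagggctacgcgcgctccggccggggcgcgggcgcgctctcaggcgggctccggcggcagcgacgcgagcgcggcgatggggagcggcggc

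In E2F1, GCGGCAAA at bases -33 to -26 from the annotated start and TTTGGCGC at -20 to -13 lay close together, so that the gene of the activator E2F carries words of its own family. RBL1, the gene of p107, likewise held a pair of words at -26 to -19 and -16 to -9. In E2F2 and CDC25A a single TTTGGCGC stood at -42 to -35 and at -44 to -37. CDK1 has windows for 2 annotated starts, and the one shown combined both kinds, with TTTCGCGC at -128 to -121 and TTTGAA at -69 to -64 and -13 to -8, beside TTCAAA at 10 to 15. CCNB2 and CCNF held TTTGAA at -29 to -24 and at -85 to -80. A word is a match of letters and not a site shown to be bound. Over all tested genes with a window, 245 of the 618 with an E2F word were higher in ZsGreen-positive libraries (39.6%), against 29.2% of the 8418 without one. For TTTGAA the shares were 29.1% of 1194 genes with the word and 30.1% of 7842 without it.

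In ZsGreen-positive cells most of the core cell cycle genes were higher. The genes of E2F1, CDK1, B-MYB, cyclin A2 and cyclin B1 rose by log2 fold changes of 2.73 to 3.41, while CCND1, RB1, RBL2 and CDKN1B had log2 fold changes of -0.16 to 0.08 and did not pass the test. The genes that fell included CDKN2B, WEE1, CDK7 and CDK6. The test was limma on log2(FPKM + 1), run on 12213 genes whose mean reached 1 FPKM, with Benjamini-Hochberg adjustment over those genes and a threshold of 0.05. Of the 47 genes 46 were tested, and 32 were higher, 7 were lower and 7 did not pass. Over all tested genes 59.4% were called, 29.4% higher and 30% lower. With each library rescaled to a sum of 1000000 FPKM the higher share of all calls was 62.1%, against 49.5% with the deposited values, and 34 of the 46 genes were higher and 5 lower. Small RNA genes made up 66.0% to 68.2% of the summed FPKM of a library and so weigh heavily in that sum. With these left out of the sum, 34 genes were higher and 6 lower. At least a 2-fold difference was called for 23 genes higher and 2 lower (9.48% and 8.34% of all tested genes). For 41 of the 46 genes all libraries of one group lay beyond those of the other (33 above and 8 below), which was so for 67.6% of all tested genes (33.2% above and 34.5% below). The median log2 fold change of the 46 was 0.99, against 0.0040 over all tested genes. E2F1, E2F2, E2F7, E2F8 and CDKN2C averaged under 1 FPKM in ZsGreen-negative libraries and were tested only through their level in ZsGreen-positive ones, so that they had to differ. Among the 41 genes with a mean of at least 1 FPKM in each group, 27 were higher and 7 lower, against 29.5% higher and 30.4% lower of all genes under that filter. With replicate 1 alone for the ZsGreen-positive group, 33 of 46 were higher and 8 lower, against 36.1% of all tested genes in each direction. Here and below, means carry their SD over n = 3 libraries per group, and log2 fold changes are those of log2(FPKM + 1), ZsGreen-positive over ZsGreen-negative, with their SE. In RNA from bulk cells, a larger share of cells in a phase and more RNA per cell cannot be told apart. The same holds for the groups and any batch in which they were prepared.

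**Figure D1:**
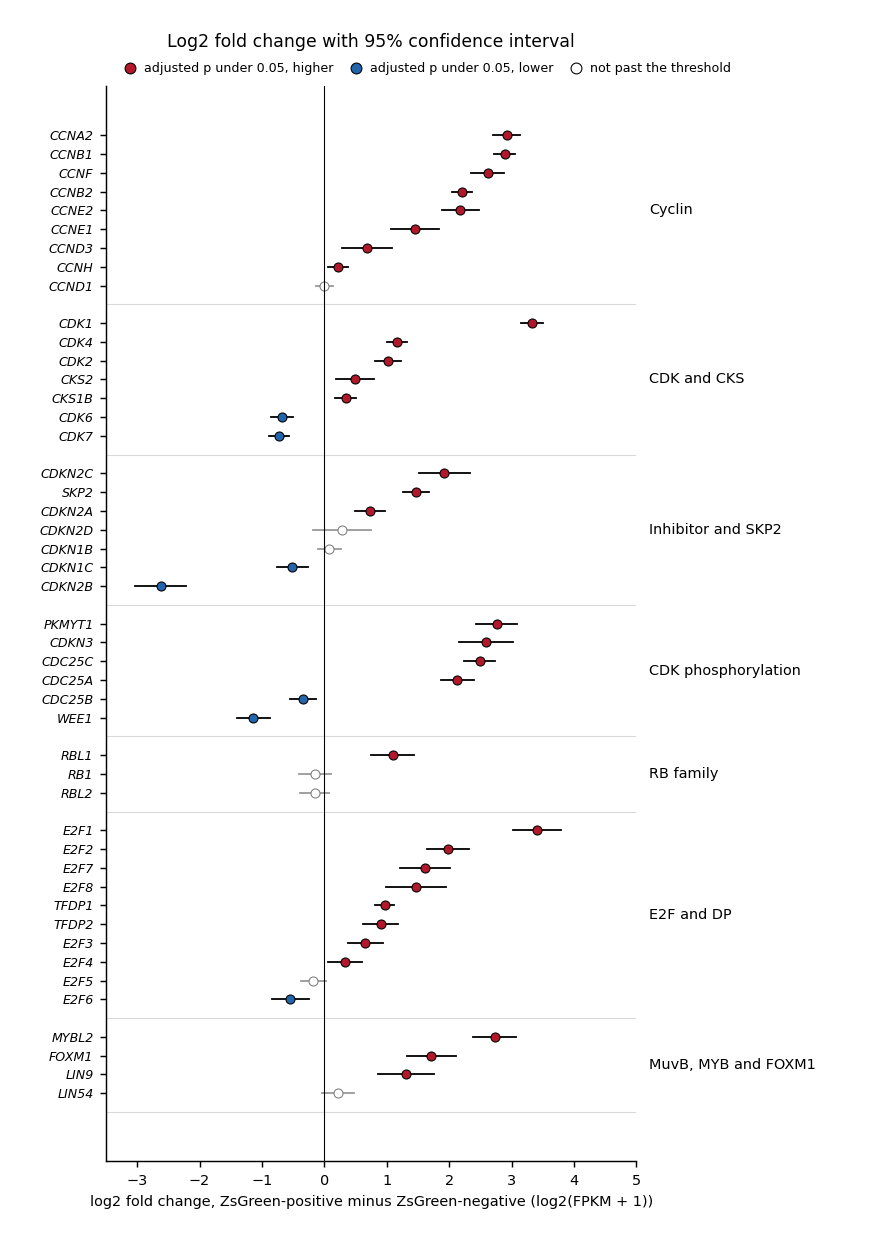
Log2 fold change (ZsGreen-positive minus ZsGreen-negative, log2(FPKM + 1) scale) of the 46 tested genes, grouped by role, with the 95% confidence interval from limma as a line. Of these, 32 points stand for genes called higher and 7 for genes called lower, with E2F1 at 3.41 and CDKN2B at -2.63 as the extremes. E2F1 averaged under 1 FPKM in ZsGreen-negative libraries and was tested only through the other group.

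Of the 9 cyclin genes tested, 8 were higher and CCND1 did not pass, with 29.4% higher over all tested genes. CCND1, which encodes cyclin D1, was at 106, 113 and 102 FPKM in ZsGreen-positive libraries and at 106, 110.4 and 105 FPKM in ZsGreen-negative libraries. The ranges overlapped, and the log2 fold change of -0.00 had a 95% confidence interval of -0.14 to 0.14. Cyclin D1 made up 91.8% ± 1.72 of the summed FPKM of D-type cyclins in ZsGreen-positive and 95.1% ± 0.745 in ZsGreen-negative libraries. CCND2 was at the level of the lowest values in the tables, with 0.0121, 0 and 0 FPKM in ZsGreen-positive and 0.0147, 0.0155 and 0.0152 FPKM in ZsGreen-negative libraries, and was not tested. CCND3 rose to 11.3, 7.60 and 9.79 FPKM in ZsGreen-positive libraries, against 5.196, 6.73 and 4.74 FPKM in ZsGreen-negative libraries (log2 fold change 0.68 ± 0.17, limma adjusted p = 0.0103). Its lowest positive library, replicate 2, stood close to the highest negative one.

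The E-type cyclins bind CDK2 at the start of S phase. CCNE1 had 13.2, 10.7 and 16.6 FPKM in ZsGreen-positive libraries, against 4.12, 3.78 and 4.85 FPKM in ZsGreen-negative libraries (log2 fold change 1.45 ± 0.16, limma adjusted p = 0.000238). CCNE2 had 13.6, 12.1 and 16.4 FPKM against 2.16, 2.39 and 2.38 FPKM in ZsGreen-positive and ZsGreen-negative libraries (log2 fold change 2.18 ± 0.13, limma adjusted p = 1.03e-05). In both genes every positive library lay above every negative one, and replicate 3 was the highest positive library. CCNE2 supplied 51.2% ± 1.80 of the summed cyclin E FPKM in ZsGreen-positive libraries and 35.4% ± 3.02 in ZsGreen-negative libraries.

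CCNA2 encodes cyclin A2, which works with CDK2 in S phase and with CDK1 in G2. It was at 34.0, 31.7 and 36.8 FPKM in ZsGreen-positive libraries and at 3.46, 3.94 and 3.53 FPKM in ZsGreen-negative libraries (log2 fold change 2.92 ± 0.0920, limma adjusted p = 9.49e-07). The positive mean was 9.38 times the negative mean. CCNB1, the gene of mitotic cyclin B1, rose to 107, 97.6 and 113 FPKM, against 13.2, 13.6 and 13.4 FPKM in ZsGreen-negative libraries (log2 fold change 2.89 ± 0.0722, limma adjusted p = 3.89e-07). In ZsGreen-positive cells CCNB1 thus reached the level of CCND1, with a log2 ratio of CCNB1 to CCND1 within a library of 0.01, -0.21 and 0.14, against -3.005, -3.02 and -2.98 in ZsGreen-negative libraries. CCNB2 averaged 44.7 ± 1.64 FPKM against 8.95 ± 0.336 FPKM, and CCNF, an F-box protein that marks substrates for degradation in G2, averaged 14.7 ± 0.603 FPKM against 1.56 ± 0.242 FPKM in ZsGreen-positive and ZsGreen-negative libraries. Both rose, by log2 fold changes of 2.201 ± 0.0696 and 2.62 ± 0.11 (limma adjusted p = 9.49e-07 and 2.90e-06). CCNA2 overlaps EXOSC9, a gene of the RNA exosome, which averaged 46.9 FPKM in ZsGreen-positive and 19.3 FPKM in ZsGreen-negative libraries. Other called genes described below overlap neighbours with at least 1 FPKM, among them CDC25C with FAM53C (17.5 FPKM against 31.8 FPKM), PKMYT1 with PAQR4 (10.1 FPKM against 4.601 FPKM) and SKP2 with NADK2 (9.03 FPKM against 5.89 FPKM in ZsGreen-positive and ZsGreen-negative libraries). Whether the authors counted by strand is unknown here, so that reads of overlapping genes may not be told apart and these values are uncertain to that degree.

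CCNH encodes the cyclin of the CDK-activating kinase. It had 47.2, 40.9 and 43.9 FPKM in ZsGreen-positive libraries, against 38.0, 37.8 and 37.4 FPKM in ZsGreen-negative libraries (log2 fold change 0.21 ± 0.0699, limma adjusted p = 0.0318). The groups did not overlap, but the call was lost under 7 of 20 alternatives, for instance without ZsGreen-positive replicate 3 (adjusted p = 0.0515) or any negative library (adjusted p = 0.0903, 0.0987 and 0.109 without replicates 1 to 3), and with the replicate block (adjusted p = 0.0629).

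**Figure D2:**
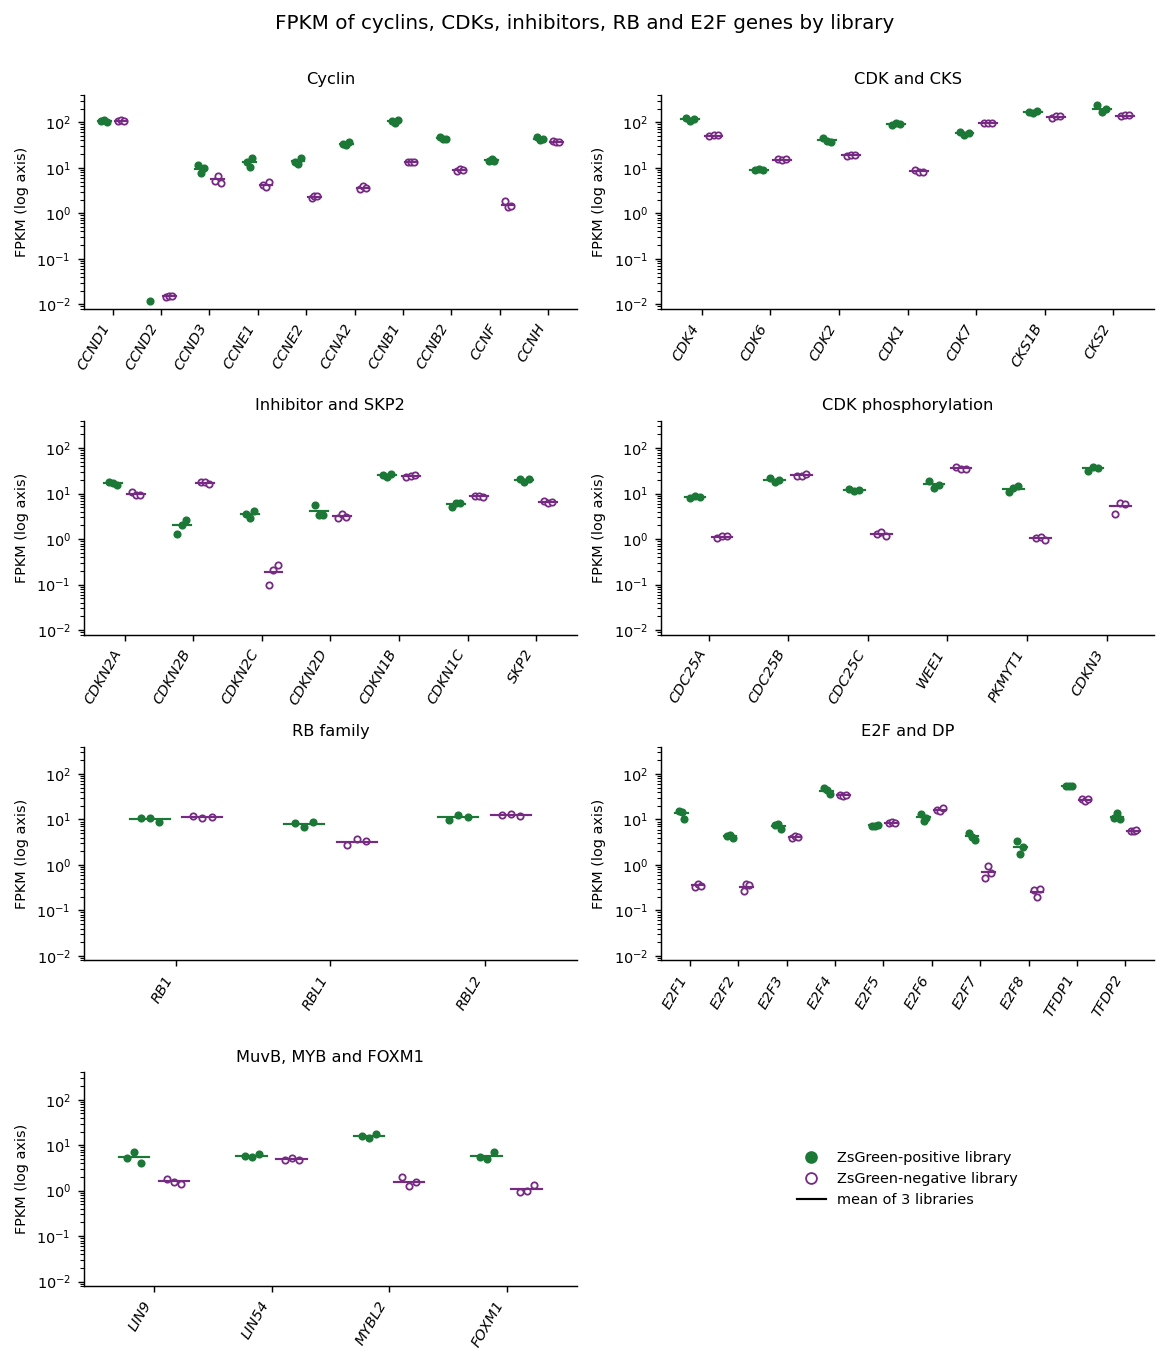
FPKM of the 47 genes in each library on log axes, in 7 panels by role, with ZsGreen-positive libraries as filled points left of the ZsGreen-negative libraries as open points, and lines at the means. CDK1, CCNA2, CCNB1, PKMYT1, E2F1 and MYBL2 show wide gaps between the groups, CCND1, CDKN1B and RB1 overlap, and the values of 0 for CCND2 in ZsGreen-positive replicates 2 and 3 are not drawn.

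Among the kinases, CDK1 of mitosis differed most. CDK1 had 87.3, 98.6 and 94.2 FPKM in ZsGreen-positive libraries, against 8.80, 8.14 and 8.28 FPKM in ZsGreen-negative libraries (log2 fold change 3.33 ± 0.0729, limma adjusted p = 1.90e-07). Every positive library lay about an order of magnitude above the negative ones. CDK2, the kinase of S phase, rose to 45.1, 39.1 and 36.5 FPKM, against 18.6, 19.6 and 19.6 FPKM in ZsGreen-negative libraries (log2 fold change 1.02 ± 0.0891, limma adjusted p = 6.56e-05). FPKM is per length, so the levels of the kinases can be set side by side: CDK1 was 2.33 times CDK2 in ZsGreen-positive and 0.436 times CDK2 in ZsGreen-negative libraries.

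The G1 kinases moved in opposite directions. CDK4 had 123, 107 and 118 FPKM in ZsGreen-positive libraries, against 49.4, 51.9 and 52.6 FPKM in ZsGreen-negative libraries (log2 fold change 1.16 ± 0.0688, limma adjusted p = 1.06e-05). CDK6, which binds the same D-type cyclins, fell to 9.15, 9.39 and 8.78 FPKM, against 15.5, 14.8 and 15.4 FPKM in ZsGreen-negative libraries (log2 fold change -0.68 ± 0.0762, limma adjusted p = 0.000220). CDK6 supplied 7.29% ± 0.655 of the summed FPKM of this pair in ZsGreen-positive libraries and 22.9% ± 0.864 in ZsGreen-negative libraries. Within a library, where scaling between libraries has no bearing, the ratio of CDK6 to CDK4 was 0.0784 in ZsGreen-positive and 0.296 in ZsGreen-negative libraries.

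CDK7, the catalytic subunit of the CDK-activating kinase and a part of the transcription factor TFIIH, had 62.4, 53.7 and 57.9 FPKM in ZsGreen-positive libraries. In ZsGreen-negative libraries it had 95.4, 96.6 and 99.1 FPKM (log2 fold change -0.73 ± 0.0689, limma adjusted p = 9.16e-05). It was thus lower while its cyclin, CCNH, was slightly higher, and MNAT1, the assembly factor of the same kinase, was lower, at 41.2 ± 4.64 FPKM against 52.5 ± 1.92 FPKM in ZsGreen-positive and ZsGreen-negative libraries (log2 fold change -0.35 ± 0.0894, limma adjusted p = 0.0122). CDK7 overlaps CCDC125, which averaged 8.98 FPKM in ZsGreen-positive and 3.60 FPKM in ZsGreen-negative libraries. CKS1B and CKS2 encode small subunits that bind CDKs, and CKS1B also serves SKP2 in recognising p27. CKS1B averaged 170.2 ± 11.3 FPKM against 134 ± 7.96 FPKM, and CKS2 averaged 201 ± 40.1 FPKM against 141 ± 4.55 FPKM in ZsGreen-positive and ZsGreen-negative libraries. These rises (log2 fold change 0.34 ± 0.0724 and 0.49 ± 0.13, limma adjusted p = 0.00529 and 0.0140) were lost with quantile normalisation (adjusted p = 0.435 and 0.0984). They had the highest mean FPKM of the 47 genes in both groups.

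The inhibitors went in both directions. Of 7 genes (4 INK4 inhibitors, 2 CIP/KIP inhibitors and SKP2), 3 were higher, 2 were lower and 2 did not pass. Over all tested genes, 29.4% were higher and 30% lower, and 7 genes are too few to set apart from those shares. INK4 proteins block CDK4 and CDK6. CDKN2B, which encodes the INK4 inhibitor p15, was at 1.29, 2.09 and 2.69 FPKM in ZsGreen-positive libraries and at 17.8, 17.7 and 16.5 FPKM in ZsGreen-negative libraries (log2 fold change -2.63 ± 0.18, limma adjusted p = 1.84e-05). It had the lowest log2 fold change of the 46 tested genes. CDKN2A, its neighbour on the chromosome, which encodes p16 and ARF, was higher, with 18.3, 17.4 and 15.2 FPKM in ZsGreen-positive libraries, against 10.8, 9.45 and 9.16 FPKM in ZsGreen-negative libraries (log2 fold change 0.73 ± 0.10, limma adjusted p = 0.000717). Adjacent genes of related function therefore stood on opposite sides. The antisense gene CDKN2B-AS1, which overlaps both in the RefSeq annotation, was at 0.287, 0 and 2.63 FPKM in ZsGreen-positive libraries and at 2.18, 2.13 and 1.64 FPKM in ZsGreen-negative libraries.

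CDKN2C, the gene of p18, had 3.60, 2.89 and 4.09 FPKM in ZsGreen-positive libraries, against 0.0979, 0.206 and 0.264 FPKM in ZsGreen-negative libraries (log2 fold change 1.92 ± 0.17, limma adjusted p = 7.75e-05). Its mean of 0.189 FPKM in the negative libraries was below the filter. CDKN2D, which encodes p19, had 5.74, 3.31 and 3.36 FPKM against 2.90, 3.56 and 2.99 FPKM in ZsGreen-positive and ZsGreen-negative libraries, and the groups overlapped (log2 fold change 0.28 ± 0.20, limma adjusted p = 0.260). ZsGreen-positive replicate 1 was the highest library of CDKN2D, and with it as the only positive library the log2 fold change was 0.70 (adjusted p = 0.00665). The summed FPKM of the 4 INK4 genes was 26.7 ± 2.01 in ZsGreen-positive and 30.5 ± 1.40 in ZsGreen-negative libraries. The value of CDKN2A does not separate p16 from ARF, so that the sum is not one of INK4 inhibitors alone. CDKN2B supplied 7.73% ± 3.11 and CDKN2A 63.7% ± 3.92 of this sum in ZsGreen-positive libraries, against 56.8% ± 0.527 and 32.2% ± 1.89 in ZsGreen-negative libraries. CDKN2C supplied 13.3% ± 2.57 in ZsGreen-positive and 0.630% ± 0.304 in ZsGreen-negative libraries.

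CDKN1B, which encodes p27, the CIP/KIP inhibitor of CDK2, had 25.8, 23.8 and 27.5 FPKM in ZsGreen-positive libraries and 22.9, 24.6 and 25.2 FPKM in ZsGreen-negative libraries. The groups overlapped, and the log2 fold change of 0.08 had a 95% confidence interval of -0.11 to 0.27 (limma adjusted p = 0.414). Its ratio to CDK2 within a library was 0.641 in ZsGreen-positive and 1.26 in ZsGreen-negative libraries. SKP2, the F-box protein that marks p27 for degradation, rose to 20.6, 17.9 and 20.7 FPKM in ZsGreen-positive libraries, against 6.798, 6.26 and 6.46 FPKM in ZsGreen-negative libraries (log2 fold change 1.46 ± 0.0900, limma adjusted p = 1.25e-05). CDKN1C, the gene of p57, fell to 5.80 ± 0.691 FPKM in ZsGreen-positive libraries, against 8.69 ± 0.198 FPKM in ZsGreen-negative libraries (log2 fold change -0.52 ± 0.11, limma adjusted p = 0.00461).

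CDK1 and CDK2 are held inactive by phosphate groups that WEE1 and PKMYT1 (MYT1) add and CDC25 phosphatases remove, and within each of these families one gene was lower while its relatives were higher. WEE1, the nuclear kinase, had 18.7, 13.6 and 15.9 FPKM in ZsGreen-positive libraries, against 38.3, 35.5 and 35.6 FPKM in ZsGreen-negative libraries (log2 fold change -1.14 ± 0.11, limma adjusted p = 0.000116). PKMYT1, its membrane-bound relative, had 10.7, 13.1 and 14.9 FPKM against 1.06, 1.10 and 0.935 FPKM in ZsGreen-positive and ZsGreen-negative libraries (log2 fold change 2.76 ± 0.14, limma adjusted p = 5.43e-06). No library of one group reached the range of the other for either gene. PKMYT1 supplied 44.6% ± 6.99 of the summed FPKM of the pair in ZsGreen-positive libraries and 2.76% ± 0.234 in ZsGreen-negative libraries, and the ratio of PKMYT1 to WEE1 within a library was 28.3-fold higher in ZsGreen-positive libraries. This was the largest difference of the 17 ratios computed. It rests on a low value of PKMYT1 in ZsGreen-negative libraries, 1.03 FPKM on average, close to the filter of 1 FPKM.

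CDC25A, which acts from G1 on, had 7.86, 8.88 and 8.30 FPKM in ZsGreen-positive libraries, against 1.07, 1.18 and 1.15 FPKM in ZsGreen-negative libraries (log2 fold change 2.13 ± 0.11, limma adjusted p = 6.95e-06). CDC25C, which acts on CDK1 at the entry to mitosis, had 12.4, 11.5 and 12.1 FPKM against 1.31, 1.46 and 1.19 FPKM in ZsGreen-positive and ZsGreen-negative libraries (log2 fold change 2.49 ± 0.11, limma adjusted p = 2.94e-06). Both stood far apart between the groups. CDC25B, which acts in G2, was lower, with 21.8, 18.1 and 19.8 FPKM in ZsGreen-positive libraries, against 24.7, 25.0 and 26.8 FPKM in ZsGreen-negative libraries (log2 fold change -0.34 ± 0.0858, limma adjusted p = 0.0105). This call was lost without ZsGreen-negative replicate 3 (adjusted p = 0.0536) and with rescaling of each library to a sum of 1000000 (adjusted p = 0.102). CDC25B supplied 49.4% ± 2.42 of the summed CDC25 FPKM in ZsGreen-positive libraries and 91.2% ± 0.771 in ZsGreen-negative libraries. CDKN3, a phosphatase that removes the activating phosphate of CDKs, rose to 35.9 ± 3.48 FPKM in ZsGreen-positive libraries, against 5.24 ± 1.47 FPKM in ZsGreen-negative libraries (log2 fold change 2.59 ± 0.18, limma adjusted p = 2.41e-05).

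**Figure D3:**
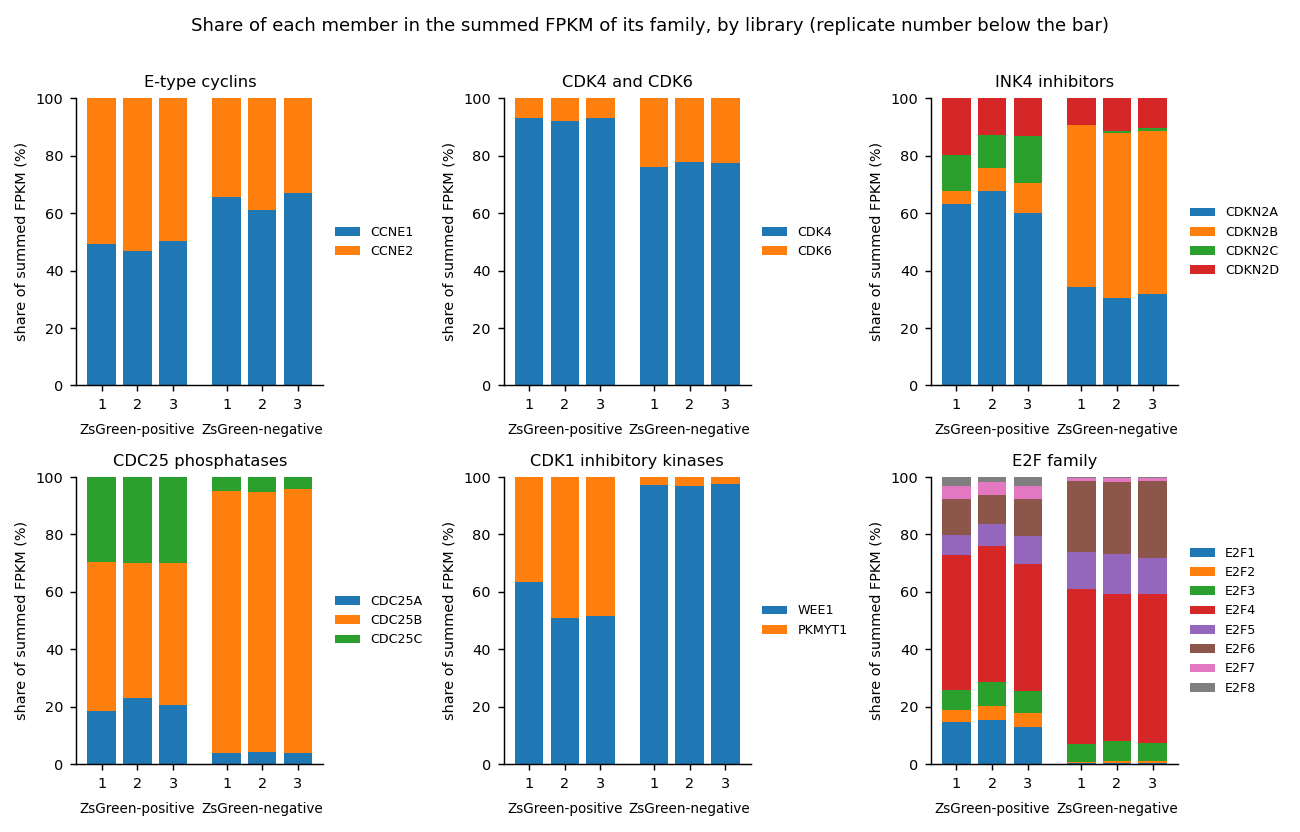
Share of each gene in the summed FPKM of its family (stacked bars, percent), 1 bar per library, with the 3 ZsGreen-positive libraries left of the 3 ZsGreen-negative ones. CDKN2B, WEE1 and CDC25B hold the largest share of their families in ZsGreen-negative libraries (56.8%, 97.2% and 91.2% on average), and their shares were 7.73%, 55.4% and 49.4% in ZsGreen-positive libraries.

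Of the RB family, RBL1 was called and RB1 and RBL2 were not, with 59.4% of all tested genes called. RB1 had 10.53, 11.01 and 8.59 FPKM in ZsGreen-positive libraries and 11.7, 10.7 and 11.1 FPKM in ZsGreen-negative libraries (log2 fold change -0.15, 95% confidence interval -0.40 to 0.11, limma adjusted p = 0.276). RBL2, the gene of p130, the pocket protein of resting cells, averaged 11.2 ± 1.24 FPKM against 12.6 ± 0.747 FPKM in ZsGreen-positive and ZsGreen-negative libraries (log2 fold change -0.16, 95% confidence interval -0.40 to 0.08, limma adjusted p = 0.213). With replicate 1 alone for the ZsGreen-positive group, RBL2 was lower (log2 fold change -0.32, adjusted p = 0.0225). RBL1 had 8.35, 6.81 and 8.97 FPKM in ZsGreen-positive libraries, against 2.69, 3.67 and 3.37 FPKM in ZsGreen-negative libraries (log2 fold change 1.09 ± 0.14, limma adjusted p = 0.000500). Its groups stood apart, and RBL1 supplied 27.5% ± 4.42 of the summed pocket protein FPKM in ZsGreen-positive and 11.97% ± 1.68 in ZsGreen-negative libraries. The sum itself was 29.3 ± 0.780 FPKM in ZsGreen-positive and 27.1 ± 0.751 FPKM in ZsGreen-negative libraries.

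E2F genes did not all move in the same direction, and the repressors among them went both ways. E2F1, an activator, was at 15.6, 14.6 and 10.4 FPKM in ZsGreen-positive libraries and at 0.333, 0.389 and 0.344 FPKM in ZsGreen-negative libraries (log2 fold change 3.41 ± 0.17, limma adjusted p = 4.53e-06). The positive mean was 38.2 times the negative mean, the largest ratio of means among the 46 tested genes. E2F1 and E2F2 averaged 0.356 and 0.333 FPKM in ZsGreen-negative libraries and were tested only through the other group. They therefore had to differ, and the ratio of E2F1 has a low denominator. E2F2 had 4.24, 4.54 and 3.95 FPKM against 0.261, 0.372 and 0.365 FPKM in ZsGreen-positive and ZsGreen-negative libraries (log2 fold change 1.98 ± 0.14, limma adjusted p = 2.75e-05). E2F3, which was present in both groups, had 7.47, 7.74 and 6.12 FPKM against 3.91, 4.39 and 4.13 FPKM in ZsGreen-positive and ZsGreen-negative libraries (log2 fold change 0.65 ± 0.12, limma adjusted p = 0.00239). All 3 hold an E2F word in the windows searched.

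The repressors E2F7 and E2F8, which act late in S phase and need no DP partner, rose as well. E2F7 had 4.96, 4.15 and 3.59 FPKM in ZsGreen-positive libraries, against 0.520, 0.953 and 0.658 FPKM in ZsGreen-negative libraries (log2 fold change 1.61 ± 0.17, limma adjusted p = 0.000173). E2F8 had 3.28, 1.77 and 2.54 FPKM against 0.284, 0.194 and 0.293 FPKM in ZsGreen-positive and ZsGreen-negative libraries (log2 fold change 1.47 ± 0.21, limma adjusted p = 0.000677). Both averaged under 1 FPKM in the negative libraries and were tested only through the other group, so that they had to differ. The log2 ratio of their sum to that of E2F1, E2F2 and E2F3 averaged -1.89 ± 0.259 in ZsGreen-positive and -2.33 ± 0.160 in ZsGreen-negative libraries, and these groups overlapped (exact permutation test, two-sided, p = 0.2, adjusted p = 0.227 over 17 ratios).

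E2F4 and E2F5 encode partners of p130 and p107 in repression. E2F4, the most abundant E2F gene in each library, had 49.5, 44.6 and 35.8 FPKM in ZsGreen-positive libraries, against 34.8, 32.4 and 34.8 FPKM in ZsGreen-negative libraries (log2 fold change 0.33 ± 0.12, limma adjusted p = 0.0437). ZsGreen-positive replicate 3 stood close to the negative libraries, and the call was lost under 9 of 20 alternatives. These included leaving out ZsGreen-positive replicates 1 or 2 (adjusted p = 0.103 and 0.104) and ZsGreen-negative replicates 1, 2 or 3 (adjusted p = 0.0915, 0.129 and 0.0921). E2F5 averaged 7.397 ± 0.287 FPKM against 8.50 ± 0.276 FPKM in ZsGreen-positive and ZsGreen-negative libraries, without overlap and without passing (log2 fold change -0.18 ± 0.0860, limma adjusted p = 0.113). E2F6, a repressor that acts without pocket proteins, fell to 11.1 ± 1.89 FPKM, against 16.5 ± 1.13 FPKM in ZsGreen-negative libraries (log2 fold change -0.55 ± 0.12, limma adjusted p = 0.00685). Together E2F1, E2F2 and E2F3 supplied 26.7% ± 1.72 of the summed E2F FPKM in ZsGreen-positive and 7.47% ± 0.611 in ZsGreen-negative libraries, and E2F4 with E2F5 supplied 54.2% ± 0.668 and 65.6% ± 1.15 in those groups. These shares include E2F1 and E2F2, which were tested only through the ZsGreen-positive group and had to differ.

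Both DP partners rose. TFDP1 had 55.5, 53.9 and 53.5 FPKM in ZsGreen-positive libraries, against 28.7, 26.0 and 27.5 FPKM in ZsGreen-negative libraries (log2 fold change 0.96 ± 0.0635, limma adjusted p = 1.74e-05). TFDP2 averaged 11.6 ± 1.75 FPKM against 5.70 ± 0.287 FPKM in ZsGreen-positive and ZsGreen-negative libraries (log2 fold change 0.90 ± 0.12, limma adjusted p = 0.000500). TFDP1 was 4.72 times TFDP2 in ZsGreen-positive and 4.80 times TFDP2 in ZsGreen-negative libraries, a ratio whose groups overlapped (exact permutation test, two-sided, p = 0.8).

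Of the 4 genes of late cell cycle transcription, 3 were higher and LIN54 did not pass, with 29.4% higher over all tested genes. MYBL2, the gene of B-MYB, had 15.9, 14.4 and 17.9 FPKM in ZsGreen-positive libraries, against 2.01, 1.24 and 1.52 FPKM in ZsGreen-negative libraries (log2 fold change 2.73 ± 0.14, limma adjusted p = 6.47e-06). FOXM1 had 5.55, 4.97 and 7.23 FPKM against 0.946, 1.01 and 1.36 FPKM in ZsGreen-positive and ZsGreen-negative libraries (log2 fold change 1.71 ± 0.17, limma adjusted p = 0.000112). Neither gene overlapped between the groups. FOXM1 overlaps RHNO1, a DNA damage response gene, which averaged 10.9 FPKM in ZsGreen-positive and 3.86 FPKM in ZsGreen-negative libraries. LIN9, a subunit of the MuvB core, had 5.35, 7.18 and 4.10 FPKM against 1.84, 1.56 and 1.42 FPKM in ZsGreen-positive and ZsGreen-negative libraries (log2 fold change 1.303 ± 0.19, limma adjusted p = 0.000838). LIN54, the MuvB subunit that contacts DNA at the CHR, averaged 5.87 ± 0.496 FPKM against 4.89 ± 0.376 FPKM and did not pass (log2 fold change 0.22 ± 0.11, limma adjusted p = 0.120).

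Ratios within a library were computed for 17 pairs or sums of these genes, chosen for shared or opposing roles. For 14 of them the groups stood apart without overlap. Each of these had p = 0.1 (exact permutation test, two-sided), the smallest p that 3 libraries against 3 can give. After adjustment over the 17 it was 0.121. Single genes stood apart in 67.6% of all tested genes, and no such share was computed for ratios of other genes. The count of 14 therefore cannot be set against a background. The ratio of CDC25A to CDC25B was 9.44-fold higher in ZsGreen-positive libraries, that of MYBL2 to LIN54 8.54-fold and that of E2F1, E2F2 and E2F3 to E2F4 and E2F5 4.32-fold higher. In the last ratio E2F1 and E2F2 had passed the filter only through the ZsGreen-positive group and had to differ. It therefore adds nothing to the results of the single genes, of which E2F3 had a log2 fold change of 0.65. The 4 INK4 genes together were 0.213 times the sum of CDK4 and CDK6 in ZsGreen-positive and 0.458 times in ZsGreen-negative libraries. The value of CDKN2A among them does not separate p16 from ARF. Ratios of CKS1B to CKS2 and of TFDP1 to TFDP2 overlapped between the groups, as did the ratio of the late repressors to the activators among the E2F genes.

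**Figure D4:**
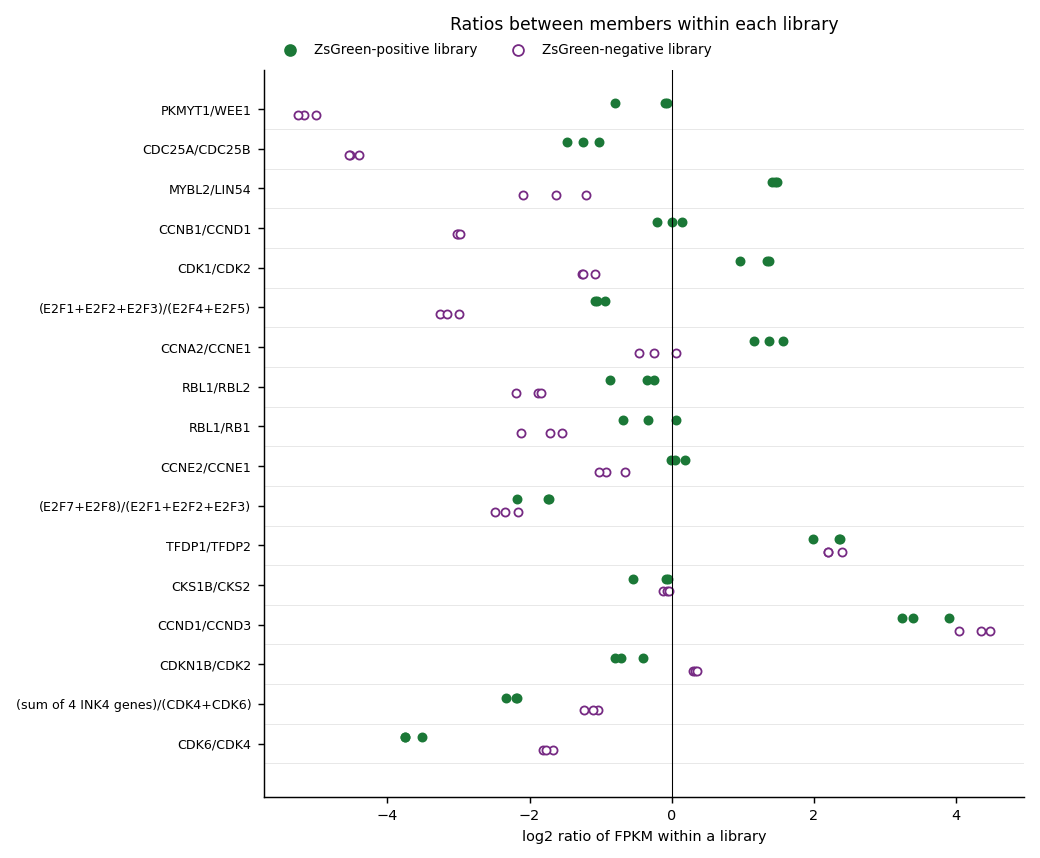
Log2 ratio of FPKM between genes within each library (x axis) for 17 pairs or sums, ordered by the difference between the groups, with ZsGreen-positive libraries as filled points above ZsGreen-negative libraries as open points. PKMYT1/WEE1 differs most, by 4.82, and CDK6/CDK4 has the most negative difference, -1.92.

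Genes downstream of these regulators were higher as a body. Of 50 genes of the G1/S phase that E2F regulates, 50 were higher, and of 49 genes of the G2/M phase, 49 were higher, against 29.4% of all tested genes. Both lists were chosen with earlier results of these data known. In them 5 and 4 genes were tested only through their level in ZsGreen-positive libraries. CDC45, with a mean of 0.799 FPKM in ZsGreen-negative libraries, is among the 5 and so had to differ. The median log2 fold changes of the G1/S and G2/M lists were 2.03 and 2.59. TK1, the thymidine kinase of S phase, had 153, 117 and 138 FPKM in ZsGreen-positive libraries, against 9.24, 9.15 and 9.05 FPKM in ZsGreen-negative libraries (log2 fold change 3.75 ± 0.0993, limma adjusted p = 4.72e-07). CDC45 and GINS2, parts of the replicative helicase, and RRM2 of ribonucleotide reductase completed the 4 genes of that list with the largest log2 fold change, at 3.90, 3.42 and 3.53. In the G2/M list these were AURKB (3.46) and BIRC5 (3.30) of the chromosomal passenger complex, and the kinesins KIF2C (3.29) and KIFC1 (3.25).

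Cyclins and CDKs that act mainly outside the cell cycle did not share that direction. Of 22 genes listed as such, 13 were lower, 2 were higher and 7 did not pass. The 13 include MNAT1, the assembly factor of the CDK-activating kinase, which is itself neither a cyclin nor a CDK. Over all tested genes, 30% were lower and 29.4% higher. With each library rescaled to a sum of 1000000 these counts were 7 lower and 4 higher (21.4% and 35.1% of all tested genes), and 4 were also higher without ZsGreen-positive replicate 2. Their median log2 fold change was -0.35. CCNL1, a cyclin tied to splicing, fell to 29.7, 25.3 and 22.2 FPKM in ZsGreen-positive libraries, against 78.1, 80.4 and 87.9 FPKM in ZsGreen-negative libraries (log2 fold change -1.64 ± 0.11, limma adjusted p = 1.74e-05). CCNI, an atypical cyclin, averaged 25.8 ± 5.65 FPKM against 58.9 ± 4.22 FPKM, and CCNT2, a cyclin of the elongation kinase CDK9, averaged 8.08 ± 0.436 FPKM against 14.4 ± 0.296 FPKM in ZsGreen-positive and ZsGreen-negative libraries. CDK13, a kinase of RNA polymerase II, averaged 7.64 ± 1.64 FPKM against 14.0 ± 0.222 FPKM. The 2 that rose were CDK10, at 27.1 ± 6.39 FPKM against 10.6 ± 0.238 FPKM, and CDK5, at 20.1 ± 4.58 FPKM against 11.5 ± 1.70 FPKM in ZsGreen-positive and ZsGreen-negative libraries.

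Among 17 genes of ubiquitin ligases that degrade cyclins and inhibitors, 6 were lower, 5 were higher and 6 did not pass, shares near those of all tested genes (30% lower and 29.4% higher). After rescaling each library to a sum of 1000000, 3 were lower and 7 higher, with 21.4% lower and 35.1% higher over all tested genes. FBXO5, which encodes the inhibitor EMI1 of the anaphase-promoting complex, rose to 28.8, 27.5 and 29.9 FPKM, against 7.45, 6.62 and 6.74 FPKM in ZsGreen-negative libraries (log2 fold change 1.91 ± 0.0807, limma adjusted p = 2.79e-06). SKP1, the adaptor that joins F-box proteins to cullin 1, FBXO4, DDB1 and FZR1, the activator CDH1 of the anaphase-promoting complex, were the others that rose (log2 fold changes 0.85, 0.83, 0.52 and 0.46). FBXW7, the F-box protein that marks cyclin E, fell to 27.5 ± 2.54 FPKM in ZsGreen-positive libraries, against 48.2 ± 1.55 FPKM in ZsGreen-negative libraries (log2 fold change -0.79 ± 0.0798, limma adjusted p = 0.000133). UBE2R2, BTRC and CUL4B also fell, by log2 fold changes of -0.71, -0.59 and -0.58.

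Of 11 partners of RB and MuvB proteins, 7 were higher, 1 was lower and 3 did not pass, with 29.4% higher and 30% lower over all tested genes. Of the 7, MYB and MYBL1 averaged under 1 FPKM in ZsGreen-negative libraries and were tested only through the other group. LIN52, a MuvB subunit, rose to 7.997, 8.06 and 13.2 FPKM, against 2.94, 2.97 and 3.10 FPKM in ZsGreen-negative libraries (log2 fold change 1.39 ± 0.19, limma adjusted p = 0.000542). HDAC2, a histone deacetylase, averaged 20.3 ± 1.83 FPKM against 9.65 ± 0.397 FPKM in ZsGreen-positive and ZsGreen-negative libraries. The gene that was lower was DYRK1A, the kinase that phosphorylates LIN52 in the assembly of DREAM. It had 15.97, 17.6 and 18.6 FPKM in ZsGreen-positive libraries, against 40.2, 39.1 and 39.2 FPKM in ZsGreen-negative libraries (log2 fold change -1.14 ± 0.0753, limma adjusted p = 1.75e-05). Without ZsGreen-positive replicate 1, 2 of these genes were lower.

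**Figure D5:**
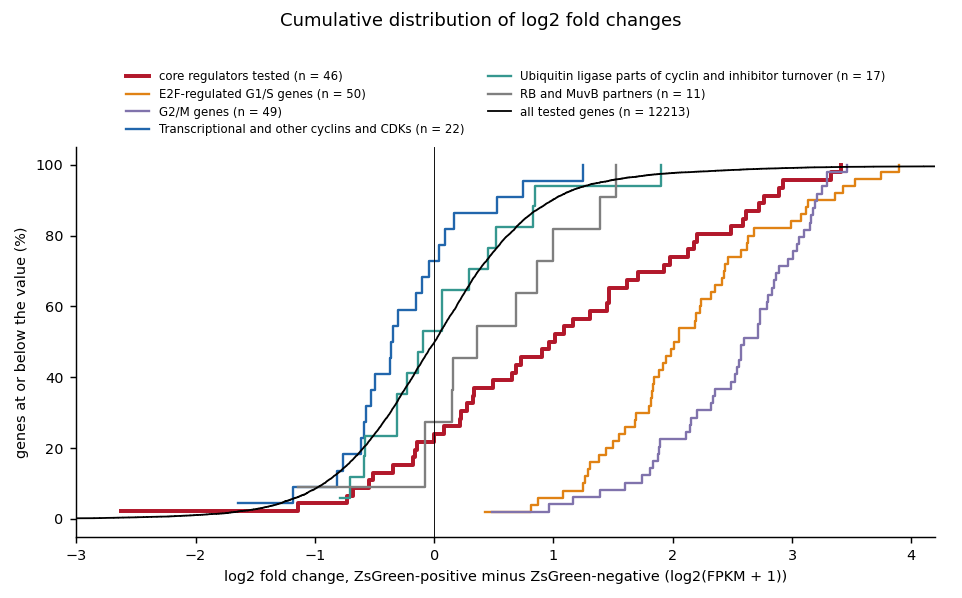
Cumulative share of genes (percent) at or below each log2 fold change, for the 46 tested core regulators, 5 related gene lists and all 12213 tested genes. The curves of the G1/S and G2/M lists (medians 2.03 and 2.59) lie right of the core regulators (median 0.99), and that of cyclins and CDKs outside the cell cycle (median -0.35) lies left of all tested genes.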

How the data were processed

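Per the labels' protocols, RNA of 6 libraries was extracted with TRIzol and miRNeasy Micro and prepared with a TruSeq Stranded mRNA kit. The authors deposited 1 table of FPKM per library. The submitters' processing notes name TopHat2 2.1.1, Bowtie2 2.2.8, SAMtools 0.1.18, Cuffdiff 2.2.1 and build hg19. No source used here gives the settings, the annotation, the scaling between libraries or the use of strand. Where FPKM is relative to a library's own total, a change in a few very abundant RNAs moves every other gene's value. A value of 0 can be a failed estimate.

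Groups were taken from the sample descriptions. The deposited FPKM were converted to log2(FPKM + 1), a scale on which changes of low genes come out too small. The fit used limma 3.58.1 in R 4.3.3 (eBayes, trended prior, two-sided), with Benjamini-Hochberg adjustment over 12213 genes with a mean of at least 1 FPKM and 4 residual and 3.22 prior degrees of freedom, and was tested on simulated data. Ratios were compared by exact permutation in Python 3.11.15 with SciPy 1.17.1. Depth was estimated, where at least 200 genes lay in the range searched, as the step at which FPKM times length (genes with 1 GENCODE transcript of at least 1000 nt) fell nearest to whole numbers. It counts fragments after any scaling by the authors, and no count model was run. Promoters and gene overlaps came from RefSeq (GRCh38.p14), matched by symbol.

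The genes, lists and tests were chosen with earlier results of these data known. All 47 genes were named, and of each list the 4 called genes with the largest log2 fold change in the list's main direction and every called gene in the other. Alternatives were other pseudocounts, filters and scalings, no trend, the replicate block, a fold threshold and fewer libraries.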

Additional observations from a re-analysis of the deposited data

How the results depend on the processing

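Across 20 alternatives, 26 of the 39 called genes kept direction and call under each alternative that tested them. Same-numbered libraries did not deviate together (correlations -0.0211, -0.0301 and -0.0209), so no shared effect of replicate number was visible. Whether they were prepared in pairs cannot be told from this. The replicate block gave 31 genes higher and 7 lower, against 32 and 7 without it, and 3433 and 3482 over all genes. CCNH (adjusted p = 0.0629) lost its call. The filter at 1 FPKM in each group was chosen after seeing the data. Testing for a fold of at least 1.5, a stricter hypothesis, left 24 of the 46 higher and 2 lower, 1 higher and 2 lower among cyclins and CDKs outside the cycle, 2 higher and 0 lower among ubiquitin ligase genes, 3 higher among RB and MuvB partners, and 1196 higher and 1097 lower over all genes. Rescaling to a sum of 1000000 moved the median log2 fold change of all genes to 0.14. It gave 4 higher and 7 lower among cyclins and CDKs outside the cycle and 3 lower among ubiquitin ligase genes, and without small RNA genes these counts were 4, 8 and 3. For the cyclins and CDKs outside the cycle, using replicate 1 alone from the ZsGreen-positive group gave 4 higher.

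Leaving out 1 library at a time gave 30 to 31 genes higher and 6 to 7 lower, 2 to 4 higher among cyclins and CDKs outside the cycle, and 1 to 2 lower among RB and MuvB partners. The log2 fold change of CCND1, which did not pass, ranged from -0.039 to 0.031 without 1 library (above 0 without ZsGreen-positive replicates 1 or 3 or ZsGreen-negative replicate 2) and was 0.18 and 0.16 under the rescalings with and without small RNA genes. RB1 (0.016) and RBL2 (0.0064) changed sign under the first rescaling. Under both rescalings LIN54 (adjusted p = 0.0377 and 0.0334) and CDKN1B (adjusted p = 0.0459 and 0.0411) were higher. Without 1 library the difference in log2 ratio CKS1B/CKS2 ranged from -0.24 to 0.0033, and that in log2 ratio TFDP1/TFDP2 from -0.094 to 0.098. With a pseudocount of 1 FPKM in the ratio, the difference in ratio TFDP1/TFDP2 was 0.060 and that in ratio (E2F7+E2F8)/(E2F1+E2F2+E2F3) was -0.17. The cause of these changes was not tested. At values near 0.015 FPKM or at 0, no difference in CCND2 was detectable.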
